A study of Homo sapiens with 3 samples.

Results

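The 46 genes described here carry cells through mitosis, the division of the nucleus, and were chosen by symbol from the gene names of the deposited count matrices. All 46 were found among 58735 features, and they lie on 20 chromosomes. They were compared across 3 single-cell RNA libraries of FaDu, a hypopharyngeal squamous carcinoma line (Fadu in the labels), and of a FaDu line with resistance to TPF. TPF is paclitaxel, which stabilises microtubules, with cisplatin, which crosslinks DNA, and 5-fluorouracil, which blocks thymidylate synthesis. The FaDu library came from parental cells treated with cinobufotalin, a steroid of toad venom. The TPF library came from the resistant line treated with TPF, and the combination library from the resistant line treated with TPF + cinobufotalin. Each group was 1 library. Doses, times and the number of resistant clones were not given in the sources used here, and untreated cells were not analysed here. The FaDu library differs from the TPF library in line and in both treatments, and from the combination library in line and TPF, so these factors cannot be told apart.

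Mitosis begins when cyclin B and its kinase CDK1 become active, and Polo-like and Aurora kinases then help to build the spindle and condense the chromosomes. Kinetochores, the protein assemblies on centromeres, hold chromosomes to spindle microtubules, and the spindle checkpoint holds back the anaphase-promoting complex until every kinetochore is attached. Many of the genes are transcribed late in the cell cycle through promoters that hold a CHR element, read by the DREAM and MuvB complexes, and CCAAT boxes, read by NF-Y. In a carcinoma line in culture these transcripts are the usual mark of cycling cells.

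The promoters show what most of the genes share. RefSeq promoter sequences (GRCh38.p14) were at hand for 40 of the 46 genes, all but BIRC5, TTK, AURKA, CDCA2, UBE2C and TPX2. In the 250 bases before a start, the CHR letters TTTGAA stood on either strand in 24 of the 40 genes, 60.0%, against 15.99% of 27265 other genes and 14.1% of the 15803 protein-coding ones. CCAAT stood on either strand in 31, 77.5%, against 36.9% and 40.1%, and both motifs in 21, 52.5%, against 5.72% and 5.33%. The GC box GGGCGG, searched on both strands for comparison, stood in 29, 72.5%, against 46.2% of other genes and 62.1% of the coding ones. The 3 motifs were searched separately and may share bases. Over 47 promoters of the 40 genes, 26 held the CHR letters, and the copy nearest the start was at a median position of -29.5, counted from the start, and within 50 bases of it in 15.

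The 120 bases before the start are shown for CDC20, CDK1 and CKS2, whose pooled log2 ratios over the FaDu library were below 0, and for MKI67, CENPF and CKAP2, whose ratios were above 0, to set promoters with both motifs beside promoters without the CHR letters or without either. Capitals mark CHR letters (TTTGAA, or TTCAAA for the other strand) and CCAAT boxes (CCAAT or ATTGG), and each sequence is 5′ to 3′ on the strand of the gene. The positions are chr1:43358861-43358980 on the plus strand for CDC20, chr10:60778358-60778477 on the plus strand for a start of CDK1, and chr9:89311075-89311194 on the plus strand for CKS2. They are chr10:128126424-128126543 on the minus strand for MKI67, chr1:214603075-214603194 on the plus strand for CENPF and chr13:52455868-52455987 on the plus strand for CKAP2.
CDC20: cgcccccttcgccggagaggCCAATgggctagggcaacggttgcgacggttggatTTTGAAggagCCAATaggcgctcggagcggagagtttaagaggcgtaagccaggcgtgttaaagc
CDK1: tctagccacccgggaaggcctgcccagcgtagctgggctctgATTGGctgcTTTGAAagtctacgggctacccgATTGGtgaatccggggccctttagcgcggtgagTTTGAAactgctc
CKS2: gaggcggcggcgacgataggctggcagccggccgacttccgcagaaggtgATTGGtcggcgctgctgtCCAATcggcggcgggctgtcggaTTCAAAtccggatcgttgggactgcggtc
MKI67: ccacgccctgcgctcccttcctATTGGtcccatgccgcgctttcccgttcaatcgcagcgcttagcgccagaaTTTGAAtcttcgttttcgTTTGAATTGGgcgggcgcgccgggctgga
CENPF: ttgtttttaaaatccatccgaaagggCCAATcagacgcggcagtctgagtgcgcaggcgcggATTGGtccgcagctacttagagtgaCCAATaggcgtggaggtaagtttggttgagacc
CKAP2: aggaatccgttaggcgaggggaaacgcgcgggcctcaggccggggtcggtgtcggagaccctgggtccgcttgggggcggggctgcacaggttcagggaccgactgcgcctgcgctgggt

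CDC20, CDK1, CKS2 and MKI67 each hold the CHR letters with CCAAT boxes, and the copy nearest the start is at position -29 in both CKS2 and MKI67. CENPF has 3 CCAAT boxes and no CHR letters in the stretch shown, and CKAP2 has neither. Members with and without the CHR letters had similar level ratios of the TPF over the FaDu library, with a median log2 ratio of 0.67 for 24 genes and 0.76 for 14. A match of letters is a description and not a binding site, and letters that are missing from this window say nothing of the factor.

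Depth was high in every library. The kept cells numbered 6123 in the FaDu library, 4862 in the TPF library and 7525 in the combination library, with medians of 24440, 27920.5 and 17867 UMIs (unique molecular identifiers, counted transcripts) and totals of 165847771, 135176387 and 134802289. Between 12 and 19 cell barcodes were shared by any pair of libraries. All 9 squamous epithelial markers reached a mean of 10 CPM (the UMIs of a gene set against all UMIs of the library, on a common scale), summing to 6771, 4901 and 3769 CPM, and none of the 6 fibroblast, 6 immune, 4 endothelial and 4 erythroid markers did, with summed levels of 1.99 to 12.2 CPM. MALAT1, a long noncoding RNA of the nucleus, was at 2710 CPM in the FaDu library against 9798 and 8661 CPM in the TPF and combination libraries. Since MALAT1 moved with the libraries, the genes are also given below in cells of equal MALAT1 share.

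Of the 46 mitosis genes, 44 reached a mean level of 10 CPM across the 3 libraries, and BUB1 and PSRC1, with means of 9.28 and 9.36 CPM, did not. Counts below cover the 44, beside the 8143 genes of the whole matrix at that level. A gene is called higher or lower where its levels were at least 1.5-fold apart, which is a rule of size and not a test, since no group has a replicate. Intervals are 95% Clopper-Pearson intervals that cover counting error only, and at this depth they exclude 0 for most genes: for 43 of 44 members in the TPF over the FaDu library, where 93.2% of all genes do so too. An interval therefore does not set a gene apart.

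**Figure D1:**
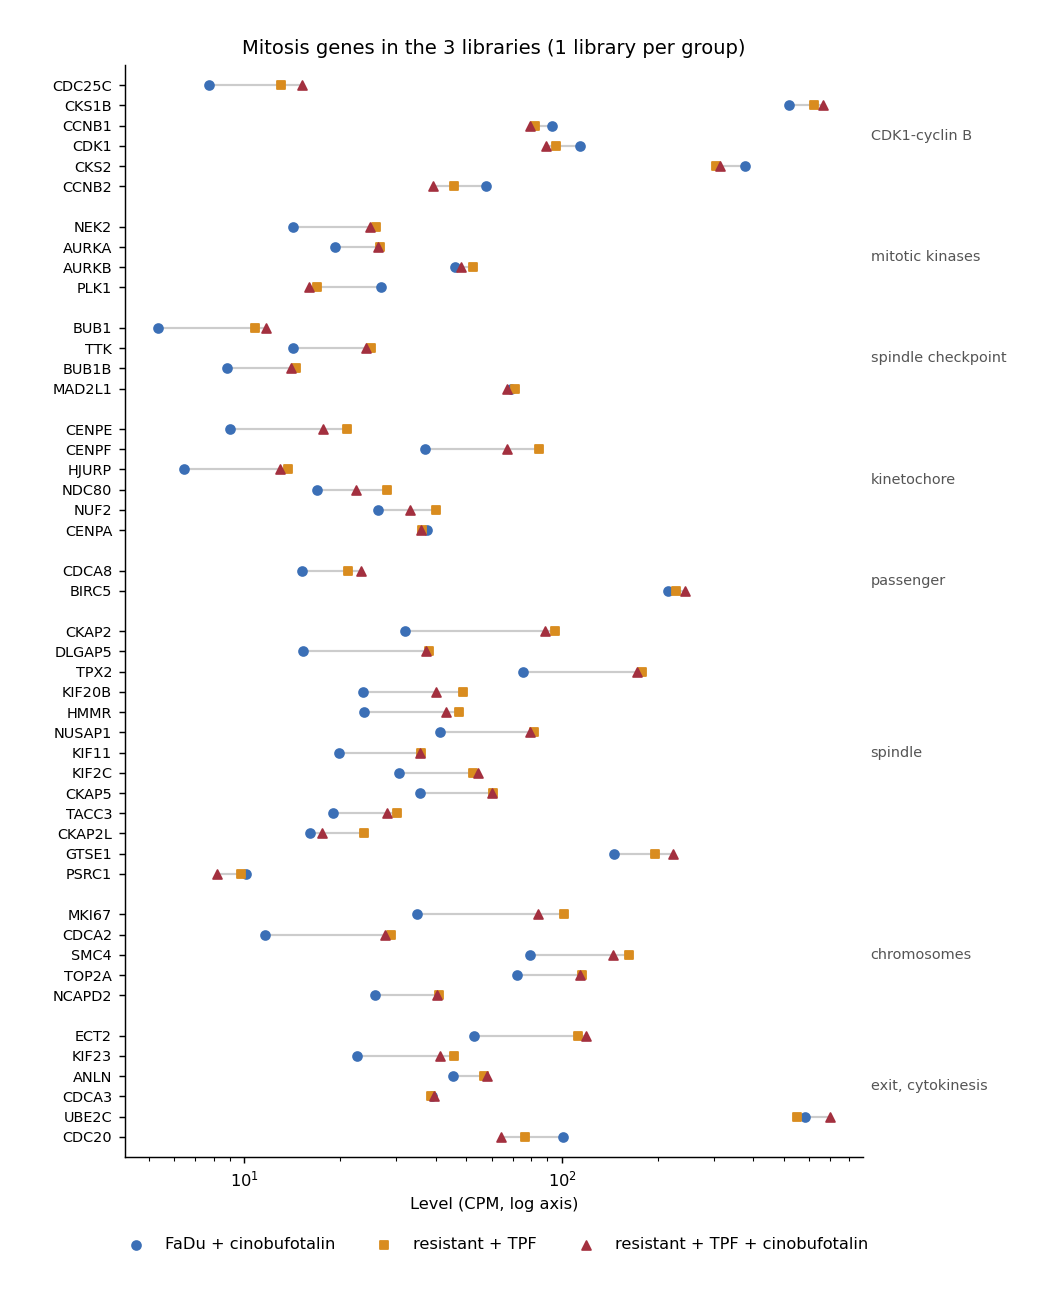
Level of each mitosis gene in the 3 libraries in CPM on a log axis, grouped by role, with 1 point per library and a grey line from the lowest to the highest. The points of the TPF and combination libraries lie near each other for most genes, while the FaDu point stands to the left for CKAP2 (32.1 against 95.2 and 88.2 CPM) and to the right for PLK1 (27.0 against 16.9 and 15.99 CPM).

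Most mitosis genes were higher in the resistant line, though not with TMM scaling, described below. In the TPF over the FaDu library 26 of 44 were higher and 1, PLK1, was lower, with a median log2 ratio of 0.70. Over all genes the median was 0.37, with 35% higher and 2.01% lower. The combination over the FaDu library had 25 higher and 2 lower, PLK1 and CDC20, with a median of 0.65 against 0.31 for all genes, of which 32.6% were higher and 4.14% lower. These comparisons share the FaDu library, so they are not independent of each other. The counts depend on the scaling. With TMM factors, which level a trimmed mean of gene ratios, all log2 ratios shift by -0.57 in the first comparison and -0.52 in the second. Then 7 members were higher and 9 lower in the first, with a median of 0.13 (all genes -0.20, with 8.46% higher and 21.5% lower), and 6 were higher and 6 lower in the second, with a median of 0.13 (all genes -0.21, with 9.96% higher and 25% lower). What does not move with scaling is the place among other genes: 30 of the 44 members lay above the median gene in the first comparison and 31 in the second, with the members' median 0.33 and 0.34 above it.

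**Figure D2:**
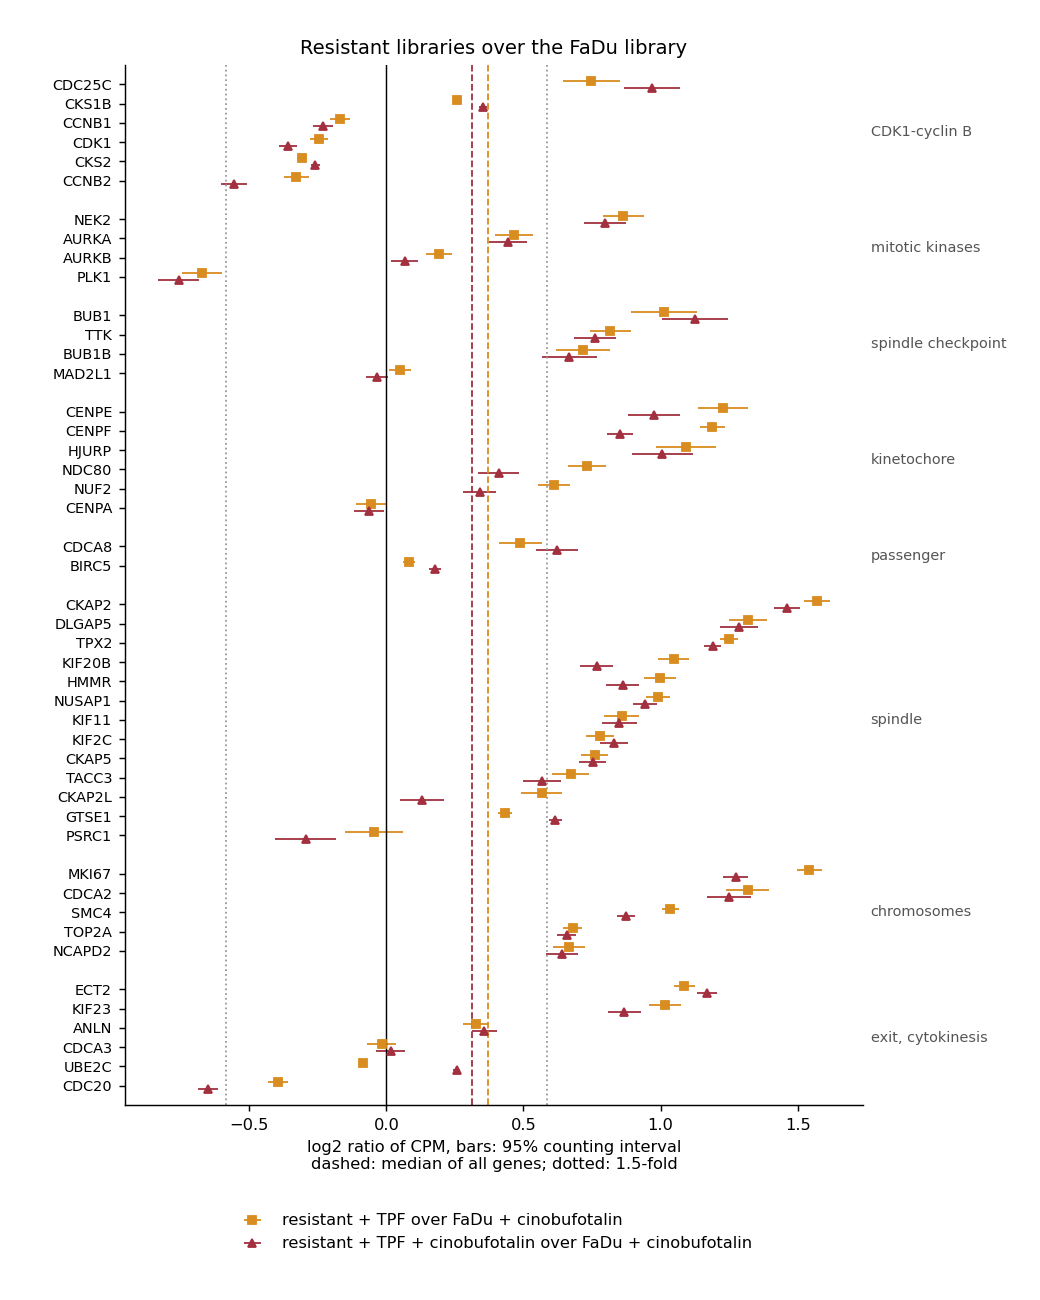
Log2 ratio of each mitosis gene in the TPF library (orange squares) and in the combination library (red triangles) over the FaDu library, by role, with 95% counting intervals as bars. Dashed lines mark the median of all genes (0.37 and 0.31) and dotted lines 1.5-fold. Spindle and chromosome genes lie to the right and the cyclin B, CDK1, PLK1 and CDC20 rows to the left.

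The genes of the mitotic trigger stood apart from the structural genes. Of 6 genes of CDK1 and cyclin B control, only CDC25C was higher in the TPF over the FaDu library. Over all genes 35% were higher. The median of the 6 was -0.21 (-0.78 with TMM). CDC25C is the phosphatase that removes the inhibitory phosphates from CDK1. CDK1, the kinase of mitotic entry, was at 114, 96.1 and 88.9 CPM in the FaDu, TPF and combination libraries. CCNB1, the main mitotic cyclin, was at 92.8, 82.5 and 79.0 CPM in the same order. Both were highest in the FaDu library when all kept cells were pooled. CCNB2, the second B-type cyclin, was at 57.5, 45.8 and 39.1 CPM, with log2 ratios over the FaDu library of -0.33 (-0.38 to -0.28) and -0.56 (-0.60 to -0.51). CKS2, a small adaptor that helps CDK1 bind its substrates, was at 378, 305 and 316 CPM, while its relative CKS1B was at 518, 620 and 661 CPM. The paralogs thus lay on opposite sides of the FaDu level, though with TMM CKS1B was also below 0, as was every member with a positive ratio smaller than the shift.

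Among the 4 mitotic kinases the median was 0.33 (-0.24 with TMM). PLK1, the Polo-like kinase that acts from mitotic entry to cytokinesis, was at 27.0 CPM in the FaDu library and at 16.9 and 15.99 CPM in the TPF and combination libraries. Its log2 ratios were -0.67 (-0.75 to -0.60) and -0.76 (-0.83 to -0.68), the lowest of the members in both comparisons. TMM shifts all ratios of a comparison alike, so it cannot change this order. NEK2, which splits the centrosomes, was at 14.3, 25.9 and 24.8 CPM, the opposite order. AURKA, the Aurora kinase of spindle poles, was at 19.3, 26.7 and 26.3 CPM, and AURKB, the Aurora kinase of centromeres and the midzone, at 46.1, 52.6 and 48.2 CPM. Its partners in the chromosomal passenger complex, BIRC5 (survivin) and CDCA8 (borealin), had ratios of the TPF over the FaDu library of 0.08 and 0.49.

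Spindle checkpoint and kinetochore genes were mostly higher in the TPF over the FaDu library, but few or none were with TMM. Over all genes 35% were higher in the TPF and 32.6% in the combination over the FaDu library. With TMM these shares were 8.46% and 9.96%, and 21.5% and 25% were lower. Of 3 measured checkpoint genes 2 were higher in both comparisons, and 0 with TMM. TTK, the kinase that starts checkpoint signalling, was at 14.2, 25.04 and 24.1 CPM, and BUB1B, part of the complex that inhibits CDC20, at 8.83, 14.5 and 14.0 CPM. MAD2L1, which binds CDC20 directly, was at 68.9, 71.3 and 67.2 CPM, the nearest to level of the checkpoint genes. Of 6 kinetochore genes 5 were higher in the TPF over the FaDu library, with a median of 0.91, and 3 in the combination over the FaDu library, with a median of 0.63. With TMM 2 were higher and 1 lower in the first and 0 in either direction in the second, with medians of 0.34 and 0.11. CENPF, a large coiled-coil protein of the outer kinetochore, was at 37.1, 84.5 and 66.9 CPM, and CENPE, a kinesin that carries chromosomes to the spindle equator, at 9.002, 21.1 and 17.7 CPM. NDC80 and NUF2, subunits of the complex that grips microtubules, were at 17.0, 28.2 and 22.5 CPM and at 26.3, 40.2 and 33.3 CPM. CENPA, the histone variant that marks centromeres, was the exception at 37.6, 36.2 and 36.0 CPM, whereas HJURP, its chaperone, was at 6.46, 13.8 and 13.0 CPM.

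Spindle and chromosome genes had the highest ratios. Of 12 measured spindle genes 10 were higher in the TPF over the FaDu library, with a median of 0.92 (0.36 with TMM, 3 higher). Over all genes 35% were higher, and 8.46% with TMM. CKAP2, a microtubule nucleating protein, was at 32.1, 95.2 and 88.2 CPM and had the highest ratios of the members in both comparisons, 1.57 (1.52 to 1.62) and 1.46 (1.41 to 1.51). TPX2, which activates AURKA on the spindle, was at 75.4, 179 and 172 CPM, with ratios of 1.25 and 1.19. DLGAP5, a stabiliser of kinetochore fibres, was at 15.3, 38.1 and 37.2 CPM. The kinesins KIF11, which pushes the poles apart, KIF20B and KIF2C had ratios of the TPF over the FaDu library of 0.86, 1.05 and 0.78. All 5 chromosome genes were higher in both comparisons, and 2 of 5 in each with TMM. The shares of all genes higher in the 2 comparisons were 35% and 32.6%, and 8.46% and 9.96% with TMM. MKI67, the proliferation marker that coats mitotic chromosomes, was at 34.8, 101.5 and 84.2 CPM, with ratios of 1.54 (1.498 to 1.587) and 1.27 (1.23 to 1.32). SMC4, the core ATPase of condensin, was at 79.2, 162 and 145 CPM, TOP2A, the topoisomerase that untangles sister chromatids, at 72.3, 116 and 114 CPM, and CDCA2, which brings a phosphatase to chromatin, at 11.6, 29.02 and 27.7 CPM.

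The genes of mitotic exit divided. CDC20, which activates the anaphase-promoting complex, was at 101, 76.4 and 64.1 CPM, with ratios over the FaDu library of -0.40 (-0.43 to -0.36) and -0.65 (-0.69 to -0.61). UBE2C, the ubiquitin-conjugating enzyme of that complex, was at 583, 550 and 696 CPM. The genes of cytokinesis ECT2, which activates RhoA at the division plane, and KIF23, a midzone kinesin, were at 52.9, 112 and 119 CPM and at 22.6, 45.7 and 41.2 CPM. ANLN, a scaffold of the contractile ring, was at 45.3, 56.8 and 58.0 CPM, and CDCA3, a trigger of mitotic entry through WEE1 destruction, at 39.0, 38.6 and 39.5 CPM. In the TPF library ECT2 and KIF23 were 2.12-fold and 2.02-fold above their FaDu level.

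The combination and TPF libraries, whose labels differ in 1 factor, cinobufotalin, were nearly level in the mitosis genes when all kept cells were pooled. Values by MALAT1 share, given below, were less level in the lowest range. With 1 library on each side, cinobufotalin and library cannot be told apart. In the combination over the TPF library 0 of 44 members were higher and 0 lower, where 0.0737% of all genes were higher and 0.172% lower (0.111% and 0.0982% with TMM, again with 0 members in either direction). The members' median was -0.06, the same to 2 decimals as that of all genes, and 21 of 44 lay above the median gene. The highest ratio was that of UBE2C at 0.34 (0.33 to 0.35), 550 against 696 CPM, followed by CDC25C at 0.22 (0.13 to 0.31) and GTSE1, a microtubule-binding protein of G2 cells, at 0.18 (0.16 to 0.21). The lowest was CKAP2L, the mitotic spindle protein radmis, at -0.44 (-0.51 to -0.36), 23.8 against 17.6 CPM. CENPF at -0.34, NDC80 at -0.32, KIF20B at -0.28, NUF2 at -0.27 and MKI67 at -0.27 came next. In this pair 33 of the 44 members and 5201 of the 8143 genes were below 0. All 6 kinetochore genes were below 0, with a median of -0.26, but CENPA at -0.008 and HJURP at -0.086 lay near the median gene. With TMM CENPA alone of the 6 was above 0, while 26 of the 44 members and 4255 of the 8143 genes were below 0. None of these differences reached 1.5-fold, and with 1 library on each side the spread between cultures is unknown.

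Other genes of division were taken from 6 lists. Condensin and cohesin genes were higher in 12 of 15 and lower in 0 in the TPF over the FaDu library, with a median of 1.05, from the condensin subunit NCAPG at 1.41 to the cohesin regulator PDS5A at 0.25. DNA replication genes were higher in 19 of 29 and lower in 0, with a median of 0.80, from the primase subunit PRIM1 at 2.25 to the sliding clamp PCNA at 0.02. Both lists thus had larger shares than the 35% of all genes. Other kinetochore and checkpoint genes were higher in 13 of 28 and lower in 0, with a median of 0.52, and the lowest was SPC24, a partner of NDC80 and NUF2, at -0.58. CDK1 control and regulator genes were higher in 8 of 17, other spindle motors and cytokinesis genes in 5 of 14, and both had 0 lower, with medians of 0.39 and 0.40, near that of all genes. The lowest of these were the S and G2 cyclin CCNA2 at -0.22 and KNSTRN at -0.23, and the highest the phosphatase subunit PPP2R2A at 1.14 and the kinesin KIF4A at 1.34. Genes of the anaphase-promoting complex and its regulators were higher in 4 of 15 and lower in 1, with a median of 0.33, from its inhibitor FBXO5 at 1.44 to its subunit ANAPC15 at -0.72.

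The same lists, in that order, had 12, 17, 11, 6, 5 and 5 genes higher and 0, 0, 1, 0, 0 and 1 lower in the combination over the FaDu library, of 15, 29, 28, 17, 14 and 15 measured. Over all genes 32.6% were higher and 4.14% lower. No list had a gene higher or lower in the combination over the TPF library, where 0.0737% of all genes were higher and 0.172% lower. There the lowest genes were RFC2, a clamp loader subunit, at -0.42 and E2F4, the repressor E2F of the DREAM complex, at -0.42, and the highest was POLA1, the catalytic subunit of DNA polymerase alpha, at 0.30. With TMM the medians in the TPF over the FaDu library were 0.48 for condensin and cohesin and 0.23 for DNA replication genes, and those of the other 4 lists were below 0, between -0.24 and -0.05. The counts with TMM, in the same order, were 6, 7, 5, 0, 3 and 1 higher and 0, 0, 4, 3, 1 and 4 lower, where 8.46% of all genes were higher and 21.5% lower.

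The direction of a member went with the length of its gene, a split chosen after the ratios were seen. The 14 members that span under 20 kb in GENCODE 29 had a median ratio of the TPF over the FaDu library of -0.05, the 19 of 20 to 50 kb one of 0.82, and the 11 of 50 kb or more one of 0.86. PLK1 spans 12.7 kb, CDC20 4.25 kb and CKS2 5.51 kb, against 62.5 kb for TPX2 and 61.4 kb for CENPF. Other protein-coding genes followed the same order, with medians of 0.11, 0.36 and 0.67. Spearman's correlation of span with ratio was 0.62 over the 44 members and 0.49 over 7713 other coding genes, given as a description, since all points share the same 2 libraries. In the combination over the FaDu library the correlations were 0.58 and 0.52. Among cells at a MALAT1 share of 0.5 to 1% the members' medians by span were 0.21, 0.76 and 0.68, and those of other coding genes 0.13, 0.24 and 0.34. No label or header used here gives whether reads from unspliced transcripts were counted, and the part of gene length in these ratios was not tested.

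Some members share their place with other genes. CDC25C overlaps FAM53C on the opposite strand, NCAPD2 overlaps MRPL51 and CKAP2L overlaps NT5DC4, also on the opposite strand, with mean UMI levels, not set per length, of 534%, 1978% and 112% of the member's own. CENPA overlaps SLC35F6 on the same strand, at 38.5% of its level. No label or header used here gives whether strand was used in counting, so the values of these 4 members are uncertain. Features named as pseudogenes of members were at most at 1.33% of the member's level.

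The UMIs of the 46 genes made up 0.329% of all UMIs in the FaDu library, 0.411% in the TPF library and 0.421% in the combination library. The median cell held 0.309%, 0.404% and 0.406%, and the cell at the 90th percentile 0.518%, 0.614% and 0.637%. At the 10th percentile the FaDu and TPF libraries were nearly level, at 0.0927% and 0.0922%, and the combination library was higher, at 0.155%. As log2 ratios the summed level was 0.32 in the TPF over the FaDu library and 0.35 in the combination over the FaDu library, near the 0.37 and 0.31 of the median gene, and -0.25 and -0.17 with TMM. The summed level thus did not stand apart from the median gene, but it weights abundant genes most. In the FaDu library UBE2C, CKS1B and CKS2 held 96664, 85943 and 62608 of the 545875 UMIs of the 46 genes. Their pooled log2 ratios of the TPF over the FaDu library were -0.08, 0.26 and -0.31. The shares per cell given here and below rest on the same sum.

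**Figure D3:**
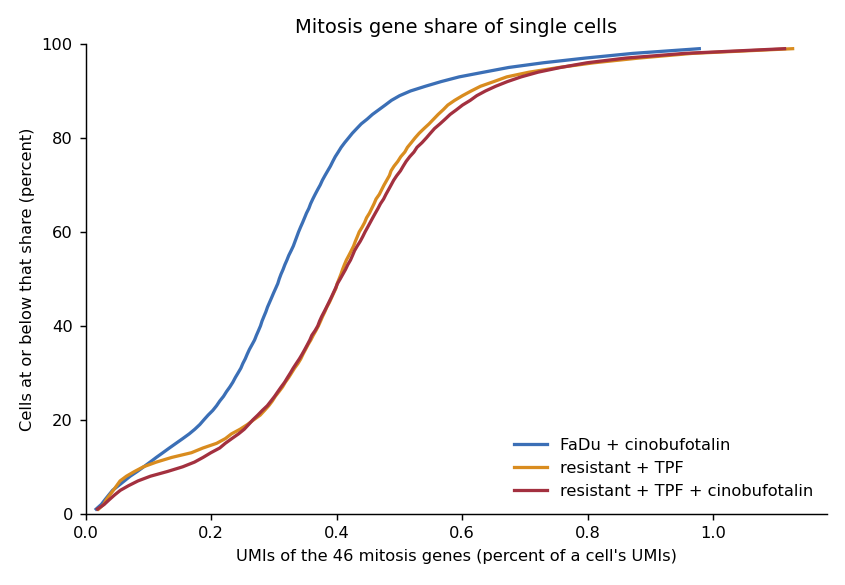
Percent of cells (vertical axis) whose summed mitosis gene share of UMIs is at or below the value on the horizontal axis, from the 1st to the 99th percentile, with 1 line per library. The combination line lies to the right of the FaDu line throughout. The TPF line lies near the FaDu line up to the 10th percentile and to its right from the 11th upward. The medians of the TPF and combination libraries are 0.404% and 0.406% against 0.309%.

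To set cells side by side at equal depth, each cell was thinned to 5000 UMIs, which left 5979, 4657 and 6954 cells and left out 144, 205 and 571 shallower cells. The median thinned cell held 15, 20 and 20 UMIs of the 46 genes in the FaDu, TPF and combination libraries. The 10% of cells highest in the genes held 22.7%, 20.7% and 20.4% of all mitosis gene UMIs, with medians of 34, 38 and 39 UMIs per cell. The lowest 10% held 1.28%, 0.949% and 1.48%, with medians of 2, 2 and 3. Before thinning the highest 10% had medians of 27609, 29846 and 19471 UMIs against 24433.5, 28234 and 18429 in the other cells. The MALAT1 share was 0.264%, 2.35% and 1.91% in the lowest 10% and 0.0785%, 0.718% and 0.784% in the highest 10%, so cells low in mitosis genes were high in MALAT1 in every library. The part of MALAT1 in this was not tested.

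The members differed in how sharply they marked the cells high in the other 45 genes. For each gene the cells were ranked by the other 45, and the mean level in the highest 10% was divided by that in the other cells. AURKA had folds of 5.41, 4.65 and 4.75 in the FaDu, TPF and combination libraries, PLK1 4.72, 4.10 and 4.10, HMMR, a spindle protein and hyaluronan receptor, 4.01, 4.72 and 3.87, and CCNB1 3.41, 3.16 and 3.29. At the other end CKS1B had 1.29, 1.29 and 1.33, SMC4 1.46, 1.46 and 1.44 and ANLN 1.52, 1.33 and 1.33. All 46 folds were above 1 in each library, but no such fold is given here for other genes, so this count does not set the members apart. By role the kinases had the highest median fold over the 3 libraries, 3.30, and the checkpoint genes the lowest, 1.96. DLGAP5 went from 4.21 in the FaDu library to 2.65 and 2.91.

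**Figure D4:**
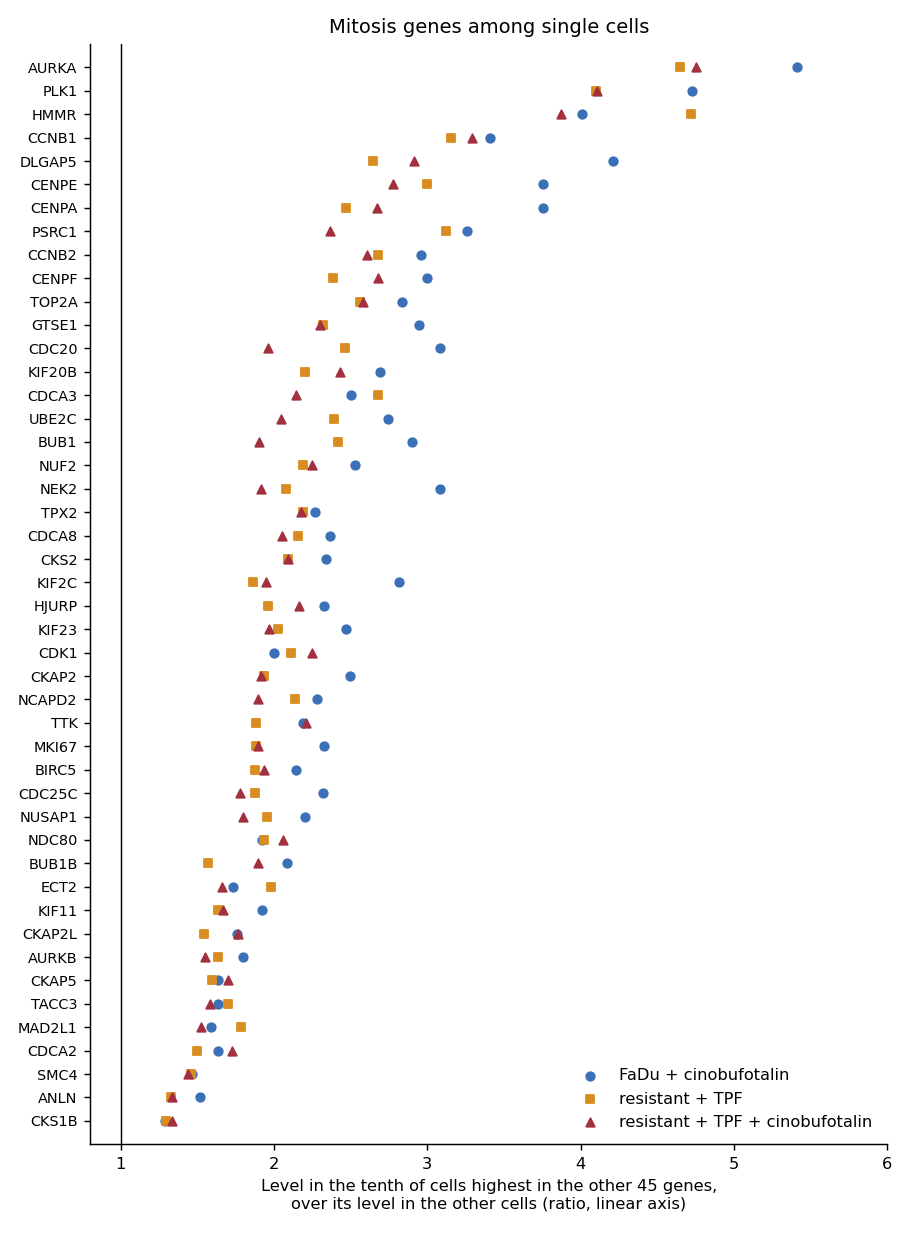
Ratio of the mean level of each gene in the 10% of thinned cells highest in the other 45 genes to its mean level in the other cells, on a linear axis, with 1 point per library and genes ordered by their mean over libraries. AURKA, PLK1 and HMMR lie at 3.87 to 5.41 and CKS1B at 1.29 to 1.33.

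The share of cells with at least 1 UMI moved with the pooled level. MKI67 was detected in 15.9% (14.9 to 16.8) of thinned cells of the FaDu library, 36.0% (34.6 to 37.4) of the TPF library and 31.6% (30.5 to 32.7) of the combination library. Without thinning the shares were 50.8%, 74.7% and 61.9%. In the lowest 10% of thinned cells MKI67 was detected in 1.17%, 1.51% and 2.30%, which is the nearest to a background that these libraries give, since no cell type in them should lack the gene, and in the highest 10% in 29.3%, 54.6% and 48.6%. PLK1 was detected in 11.6% (10.8 to 12.5), 7.41% (6.67 to 8.20) and 7.38% (6.77 to 8.02) of thinned cells, and in 37.8%, 30.2% and 20.7% without thinning. In the highest 10% it was detected in 34.3%, 20.4% and 21.9% and in the lowest in 1.51%, 1.72% and 1.87%. Few thinned cells held more than 1 PLK1 UMI, so its detected share restates its level and is not a separate result. That share was lower in the TPF and combination libraries also among the cells highest in the other genes. Shares without thinning depend on depth too, and depth was lowest in the combination library.

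CKAP2 was detected in 13.7%, 34.0% and 33.3% of thinned cells and in 4.69%, 10.97% and 12.1% of the lowest 10%, so it did not vanish from cells low in the other genes. UBE2C was detected in 77.3%, 76.4% and 83.4%, against 17.6%, 9.25% and 22.6% in the lowest 10%. CKS1B and CKS2 were present in many of the lowest cells too, CKS1B in 41.4%, 32.9% and 44.9% and CKS2 in 49.2%, 40.4% and 46.3%. Fewer cells in mitosis and less RNA per mitotic cell both lower a pooled level, and the values do not settle which applied. For PLK1, the UMIs per cell with a UMI were 1.14, 1.12 and 1.09, near the floor of 1. Free RNA was not corrected for.

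Outside the list, 10 genes followed the summed mitosis gene UMIs of thinned cells most closely, by the mean over the 3 libraries of Spearman's correlation across cells. They were UBE2S at 0.40, HMGB2 at 0.38, CDKN3 at 0.38, H2AFZ at 0.35, TUBA1B at 0.35, PTTG1 at 0.32, HMGB1 at 0.32, ARL6IP1 at 0.31, STMN1 at 0.30 and UBE2T at 0.29. The median over 8099 other genes was 0.0038 and the 99th percentile 0.143. UBE2S elongates ubiquitin chains for the anaphase-promoting complex, PTTG1 is securin, which that complex destroys, and TUBA1B and STMN1 are a tubulin and a tubulin-binding protein. Among the members themselves, each against the other 45, the mean correlation ran from 0.087 for CDC25C to 0.47 for UBE2C. Correlations in sparse counts depend on the level of the gene, so their order is a description only.

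The MALAT1 share of a cell is a measured property that moved with both the library and the mitosis genes, so the comparison was repeated within 6 ranges of it, among cells with 2% to 8% mitochondrial UMIs and at least 10000 UMIs. The median share over all cells was 0.0892% in the FaDu library, 0.795% in the TPF library and 0.731% in the combination library. In the range from 0.5 to 1%, which held 480, 1189 and 1886 cells, 25 members were higher and 0 lower in the TPF over the FaDu library, where 20.8% of all genes were higher and 2.53% lower. The combination over the FaDu library likewise had 25 higher and 0 lower, against 22.2% and 4.35% of all genes. The members' medians were 0.62 and 0.68, and those of all genes 0.24 and 0.23. Of the 44 members, 35 and 34 lay above the median gene among these cells of like MALAT1 share.

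**Figure D5:**
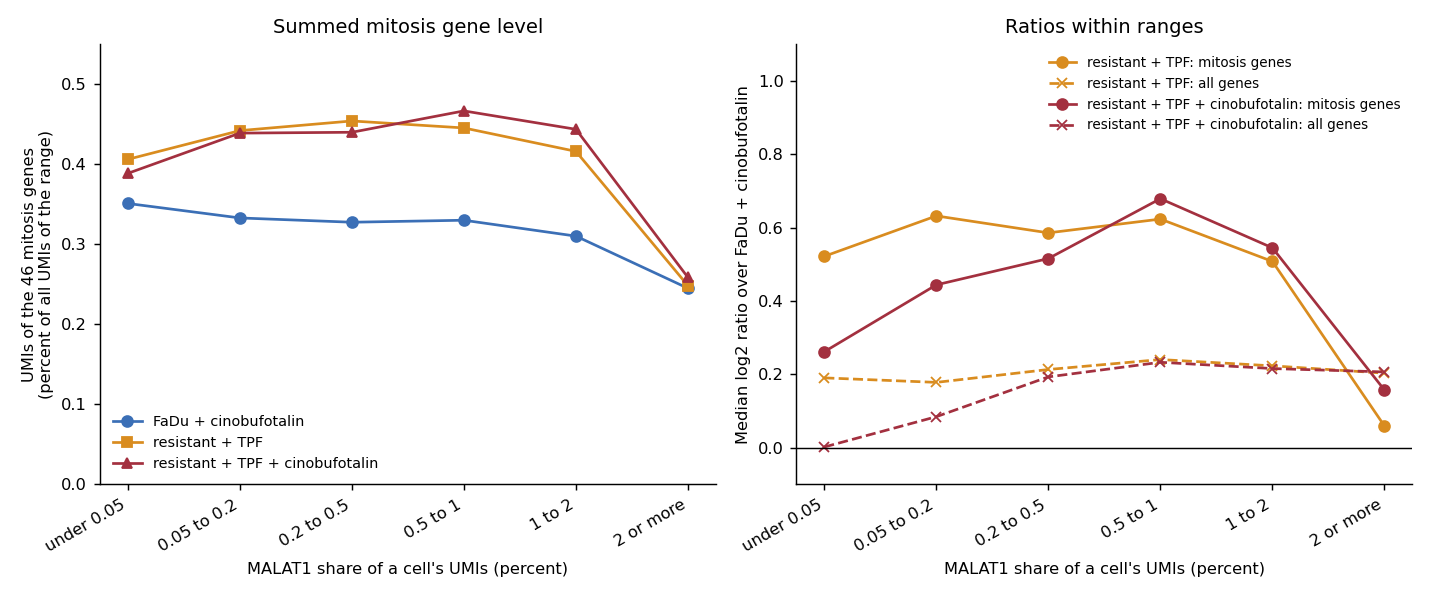
Left, UMIs of the 46 genes as a percent of all UMIs in cells of each MALAT1 range, 1 line per library. Right, median log2 ratio over the FaDu library of the 44 measured mitosis genes (solid) and of all genes (dashed) in each range. The solid lines lie above the dashed ones from under 0.05% to 2% and below them at 2% or more.

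In 5 of the 6 ranges the members' median in the TPF over the FaDu library lay between 0.51 and 0.63, against 0.18 to 0.24 for all genes. At a MALAT1 share of 2% or more it was 0.06, against 0.20 for all genes, with 4 members higher and 2 lower, where 17.5% of all genes were higher and 1.77% lower. That range held 118, 478 and 432 cells, and in it the summed level was 0.245%, 0.248% and 0.258% of UMIs in the FaDu, TPF and combination libraries, level with each other. In the combination over the FaDu library the medians went from 0.26 under 0.05% to 0.68 at 0.5 to 1% and were 0.16 at 2% or more. The lowest range held 1158 cells of the FaDu library but 75 of the TPF library and 233 of the combination library. In that range the combination over the TPF library had a median of -0.28, with 1 member higher and 11 lower, against -0.21 for all genes, of which 2.35% were higher and 15.6% lower.

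Single members held their place in most ranges. PLK1 was below 0 in all 6 ranges in both comparisons with the FaDu library, from -1.21 to -0.20 and from -0.85 to -0.44. At 0.5 to 1% it was at 24.2, 17.6 and 17.9 CPM. CKAP2, TPX2 and MKI67 were above 0 in all 6 ranges in both comparisons, CKAP2 from 0.28 to 1.89 and MKI67 from 0.89 to 1.31 in the TPF over the FaDu library. In that comparison 25 of the 46 genes were above 0 in every range and 3 were below 0 in every range. The median gene was itself above 0 in each range, at 0.18 to 0.24. The share of all genes above 0 in every range is not given here, so these counts do not set the members apart. CDC20 was less steady. In the TPF over the FaDu library it was above 0 in 2 of the 6 ranges, with ratios from -0.71 to 0.047. At 0.5 to 1% it was at 82.1, 84.1 and 70.6 CPM, so the lower pooled level in the TPF library was not seen in that range. In the combination over the FaDu library it was below 0 in all 6 ranges. CDK1 and CCNB1 were also near level at 0.5 to 1%, at 99.2, 100.3 and 92.1 CPM and at 85.2, 88.0 and 91.3 CPM. In the TPF over the FaDu library they were above 0 in 2 and 4 of the 6 ranges. UBE2C, at -0.08 when pooled, was above 0 in 5 of the 6 ranges in the TPF over the FaDu library, up to 0.47. In the combination over the TPF library it was above 0 in all 6, from 0.15 to 0.44.

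Within a library, the genes also differed between cells at a MALAT1 share of 1 to 2% and cells under 0.05%. In the FaDu library 6 members were higher and 3 lower in the cells rich in MALAT1, where 25.7% of all genes were higher and 0.418% lower, in the TPF library 7 and 1, against 30.5% and 4.05%, and in the combination library 23 and 1, against 47.3% and 5.12%. The members' medians were 0.27, 0.28 and 0.69, beside 0.24, 0.30 and 0.54 for all genes, closest in the FaDu and TPF libraries. The counts were less alike. Of the 44 members, the 6 and 7 higher in the FaDu and TPF libraries were smaller shares than over all genes. The 3 lower in the FaDu library were a larger share. UBE2C was lower in the cells rich in MALAT1 in each library, with log2 ratios of -0.76, -0.67 and -0.76, and MKI67 was higher, at 0.81, 1.12 and 1.15, as were CENPE, at 0.95, 1.08 and 1.06, and CDCA2, at 1.07, 0.93 and 1.85. CDK1 was lower in the FaDu library, at -0.73, and near level in the TPF and combination libraries, at -0.10 and -0.00066. The part of these differences within a library in those between libraries was not tested.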

How the data were processed

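The authors deposited, per the file headers, unnormalized UMI counts for each gene and barcode in 3 matrices. Cell Ranger 7.0 and hg38 are named in the submitters' processing notes, and 10x 3' chemistry in the labels' protocols. Which annotation was used, and whether introns and strand were considered, is not given in the sources. The members and lists were chosen with earlier results of these data known. All 58735 feature IDs were found in GENCODE 29, which gave positions and spans on GRCh38. Promoters came from RefSeq.

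Cells needed 1000 UMIs, 500 genes and no more than 20% mitochondrial UMIs: 6123 of 6888, 4862 of 6081 and 7525 of 8888 barcodes passed. No doublet caller was run, so doublets remain. Kept UMIs were pooled per library and scaled to CPM (Python 3.11.15, numpy 2.4.6, scipy 1.17.1, pandas 2.3.3). With 1 library per group there is no test and no dispersion. Calls are 1.5-fold at a mean of at least 10 CPM. The calculation was checked on simulated counts. The genes named outside the list were MALAT1, the highest and lowest measured gene of each list in each pair, and the 10 non-members closest to the summed members. Of the genes this rule names, 1 is not reported here. Overlapping genes were named besides. Alternatives used every barcode, a limit of 10% on mitochondrial UMIs, a minimum of 2000 genes, no cells beyond 2 times the median depth, 6 MALAT1 ranges, thinning to 5000 or 10000 UMIs, no minimum level and a 2-fold rule. Scaling was varied with TMM factors of 0.778, 1.15 and 1.12 from edgeR 4.0.16 (R 4.3.3), with totals that omit mitochondrial and ribosomal protein genes, and with every cell weighted the same. Figures were drawn with matplotlib 3.10.9.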

Additional observations from a re-analysis of the deposited data

How the results depend on the processing

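Scaling and the MALAT1 share moved the values most. The median log2 ratio of the 44 members was 0.70 in the TPF over the FaDu library, 0.65 in the combination over the FaDu library and -0.06 in the combination over the TPF library. With TMM factors these were 0.13, 0.13 and -0.013, and with totals without mitochondrial and ribosomal protein genes 0.62, 0.58 and -0.051. Weighting cells equally gave 0.65, 0.62 and -0.048, thinning to 5000 UMIs 0.66, 0.61 and -0.051, and dropping cells beyond 2 times the median depth 0.66, 0.62 and -0.039. All barcodes gave 0.69 in the first and -0.0509 in the third, and at most 10% mitochondrial UMIs 0.71 and 0.66 in the first and second.

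Over the MALAT1 ranges from under 0.05% to 2% or more, the median was 0.52, 0.63, 0.59, 0.62, 0.51 and 0.059 in the TPF over the FaDu library, 0.26, 0.44, 0.52, 0.68, 0.54 and 0.16 in the combination over the FaDu library, and -0.28, -0.18, -0.11, -0.0035, 0.036 and 0.0022 in the combination over the TPF library, where the last 2 were of the opposite sign; the cause was not tested. The pair of resistant libraries had 0 members at least 1.5-fold apart, except for 1 higher and 11 lower under 0.05% and 2 lower at 0.05 to 0.2%. Over all genes 2.35% were higher and 15.6% lower under 0.05%, and 2.47% were lower at 0.05 to 0.2%.

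In the TPF over the FaDu library 26 members were higher and 1 lower. The higher count was 17 under 0.05% MALAT1, 4 at 2% or more, 7 with TMM and 12 at 2-fold. The lower count was 2 under 0.05%, 0 in each range from 0.05% to 2%, 2 at 2% or more, 9 with TMM and 0 at 2-fold. Over all genes 21.2% were higher and 6.51% lower under 0.05%, and 17.5% and 1.77% at 2% or more. In the combination over the FaDu library 25 were higher and 2 lower. The higher count was 8 under 0.05%, 6 at 2% or more, 6 with TMM and 7 at 2-fold. The lower count was 1 without cells beyond 2 times the median depth, 6 under 0.05%, 0 at 0.05 to 0.2%, 1 at 0.2 to 0.5%, 0 at 0.5 to 1%, 1 at 1 to 2%, 5 at 2% or more, 6 with TMM, 1 with equal weight per cell and 0 at 2-fold. Over all genes 14.4% were higher and 16.6% lower under 0.05%, and 20.4% and 3.60% at 2% or more. The shares of all genes at 2-fold are not given here.

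The median share of mitosis gene UMIs per cell was 0.309%, 0.404% and 0.406% in the FaDu, TPF and combination libraries. With all barcodes it was 0.294%, 0.372% and 0.381%, with at most 10% mitochondrial UMIs 0.311%, 0.406% and 0.410%, and without mitochondrial and ribosomal protein genes in the totals 0.398%, 0.494% and 0.501%. At least 2000 genes per cell gave 0.407% in the combination library. Over the MALAT1 ranges in rising order it was 0.316%, 0.317%, 0.318%, 0.306%, 0.292% and 0.163% in the FaDu library, 0.374%, 0.408%, 0.419%, 0.423%, 0.421% and 0.212% in the TPF library, and 0.370%, 0.403%, 0.416%, 0.441%, 0.443% and 0.218% in the combination library. The share of mitosis gene UMIs in the highest 10% of cells was 22.7%, 20.7% and 20.4%, and 22.3%, 20.3% and 19.8% with thinning to 10000 UMIs.

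Of the ratios of members called higher or lower in the comparisons with the FaDu library, taken under each alternative, 323 stayed within their counting interval, 426 moved beyond it and 7 changed sign, the cause not being tested. In the TPF over the FaDu library these were CDC25C at -0.10 under 0.05%, and BUB1B at -0.057, CENPF at -0.11 and TACC3 at -0.053 at 2% or more. In the combination over the FaDu library they were BUB1B at -0.43, CENPF at -0.24 and HJURP at -0.14 at 2% or more. Members not called are outside this count, and with TMM those with a positive ratio smaller than the shift changed sign too. The range at 2% or more held 118 FaDu cells, so counts of single genes are low there. With 1 library per group no alternative shows the spread between cultures, and all values rest on 3 libraries.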
